A study of Mus musculus with 6 samples.

Results

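The genes described here are 10 neutrophil genes in 2 sets, measured in mouse hematopoietic stem cells (HSC), from which all blood cells descend. The primary granule set holds 4 genes, Elane, Prtn3, Mpo and Ctsg, and the late set holds 6 genes, S100a8, S100a9, Ngp, Ltf, Camp and Lcn2. They are 10 of the 24062 genes of the deposited table and were taken from it by symbol, and all 10 were found. They were chosen by their levels in the CDKO and control libraries compared below, so the differences between these groups are given as a description, without a test.

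RNA was sequenced from HSC of CDKO mice and of control mice. The CDKO mice were Nr4a1 fl/fl, Nr4a3-/- and Rosa26-ERt2, and the control mice were Nr4a1 fl/fl and Nr4a3-/-. Both groups therefore carried floxed Nr4a1 and no intact Nr4a3, and the control mice are not wild type. Mice of both groups were given tamoxifen at 120 mg/kg in 4 daily injections, meant to excise Nr4a1 where the ERt2 construct is present, and HSC were sorted on day 5. The construct was present in the CDKO mice alone, so its own effect and that of the Nr4a1 deletion cannot be told apart. Each group had 3 libraries, and for each one HSC of 3 to 5 mice were pooled. The labels give neither the markers of the sort nor whether pools shared a litter or a day, so p-values measure the spread between these pools.

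Neutrophils are built in order, and their granules record that order. Primary (azurophil) granules are filled at the promyelocyte stage with myeloperoxidase and serine proteases, and specific (secondary) granules are filled later, at the myelocyte and metamyelocyte stages, with lactoferrin, cathelicidin and lipocalin 2. In textbook accounts PU.1, RUNX1, C/EBP alpha and MYB drive the first program, and C/EBP epsilon is needed for the second. S100a8 and S100a9 encode the subunits of calprotectin, which is a protein of the cytosol and not of granules, so the late set is named here by its timing.

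The promoters of all 10 genes were in the RefSeq promoter table (build GRCm38.p6), which gives 250 bases before and 50 bases after each annotated start. Those of 6 genes are shown here in the order of the sets, and each reads 5′ to 3′ on the strand of its gene. They were picked to show how motif content differed between the sets. Left out were Ctsg, S100a8, Lcn2 and Camp, and the Camp window held no match to any motif searched. Counts over all 10 windows follow the sequences. Capitals mark every match, on either strand, to the motifs searched: TTNNGNAA for C/EBP factors, GAGGAA for PU.1, TGTGGT for RUNX factors, AACGG for MYB and AAAGGTCA for the element that binds NR4A receptors as monomers.
Elane (chr10:79886062-79886361, plus strand): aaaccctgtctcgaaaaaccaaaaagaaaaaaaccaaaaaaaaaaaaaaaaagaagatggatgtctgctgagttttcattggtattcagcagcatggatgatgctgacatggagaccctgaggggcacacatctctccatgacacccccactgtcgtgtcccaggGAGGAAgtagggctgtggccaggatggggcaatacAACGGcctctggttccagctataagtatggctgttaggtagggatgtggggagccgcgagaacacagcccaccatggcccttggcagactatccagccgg
Prtn3 (chr10:79879417-79879716, plus strand): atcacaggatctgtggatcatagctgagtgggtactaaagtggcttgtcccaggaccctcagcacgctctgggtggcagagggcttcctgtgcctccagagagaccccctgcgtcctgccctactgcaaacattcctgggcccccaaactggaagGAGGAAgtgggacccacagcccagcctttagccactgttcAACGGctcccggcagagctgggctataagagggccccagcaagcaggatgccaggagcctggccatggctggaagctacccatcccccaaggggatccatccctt
Mpo (chr11:87793534-87793833, plus strand): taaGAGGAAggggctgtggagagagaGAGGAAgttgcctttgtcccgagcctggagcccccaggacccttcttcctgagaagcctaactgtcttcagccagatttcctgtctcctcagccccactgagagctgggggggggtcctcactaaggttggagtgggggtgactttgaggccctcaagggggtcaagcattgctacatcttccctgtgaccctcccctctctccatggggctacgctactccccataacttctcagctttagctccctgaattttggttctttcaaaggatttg
S100a9 (chr3:90695672-90695971, minus strand): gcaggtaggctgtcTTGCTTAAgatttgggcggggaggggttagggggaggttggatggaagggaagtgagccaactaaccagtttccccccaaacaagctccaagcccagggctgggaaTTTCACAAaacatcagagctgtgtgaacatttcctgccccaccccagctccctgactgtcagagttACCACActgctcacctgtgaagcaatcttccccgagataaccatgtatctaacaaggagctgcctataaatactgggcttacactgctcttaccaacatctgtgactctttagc
Ngp (chr9:110419558-110419857, plus strand): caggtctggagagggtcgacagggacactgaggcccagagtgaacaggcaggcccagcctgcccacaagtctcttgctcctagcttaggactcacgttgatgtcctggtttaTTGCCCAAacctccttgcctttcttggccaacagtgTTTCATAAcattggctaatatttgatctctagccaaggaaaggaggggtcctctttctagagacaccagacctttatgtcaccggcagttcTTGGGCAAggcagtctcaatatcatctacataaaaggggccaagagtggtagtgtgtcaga
Ltf (chr9:111019042-111019341, plus strand): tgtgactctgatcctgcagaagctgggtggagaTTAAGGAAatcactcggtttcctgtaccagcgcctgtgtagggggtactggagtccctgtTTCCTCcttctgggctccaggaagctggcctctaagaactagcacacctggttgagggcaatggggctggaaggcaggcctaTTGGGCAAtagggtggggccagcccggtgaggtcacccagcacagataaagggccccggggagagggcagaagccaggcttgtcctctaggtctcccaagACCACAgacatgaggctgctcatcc

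Among all 32851 RefSeq promoter windows of this length, 40.7% held the C/EBP motif, 28.3% the PU.1 motif, 16.8% the RUNX motif, 17.4% the MYB motif and 1.51% the NR4A element. The C/EBP motif was in 0 of the 4 primary granule promoters and in 5 of the 6 late ones, with Camp the exception. Ngp held 3 matches to it, and S100a9 and Ltf held 2 each. The PU.1 motif was in all 4 primary granule promoters and in 3 of the 6 late ones (S100a8, Ltf and Lcn2). Elane and Prtn3 each held a MYB match, starting 50 and 55 bases before the annotated start, and a PU.1 match starting 85 and 95 bases before it. The RUNX motif was in Ctsg, S100a9 and Ltf, and the NR4A element was in none of the 10 windows. No match overlapped another in these windows. A match is a description of letters and was not tied to binding by any measurement here.

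The 10 genes lie on 6 chromosomes. Prtn3 (chr10:79879667-79883174) and Elane (chr10:79886312-79888216) are neighbours, 3138 bases apart. S100a8 (chr3:90669071-90670034) and S100a9 (chr3:90692630-90695721) are neighbours as well. Camp (chr9:109847377-109849456), Ngp (chr9:110419808-110423012) and Ltf (chr9:111019292-111042766) lie on one stretch of chromosome 9 with other genes between them. Mpo is at chr11:87793784-87804412, Ctsg at chr14:56099885-56102574 and Lcn2 at chr2:32384637-32387739.

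Levels are CPM, the reads of a gene per 1000000 counted reads of its library, as deposited, and a library held between 32863805 and 42772261 reads. A count of 0 allowed at most 0.0701 to 0.0913 CPM, depending on the library (3 counts, counting error only). Nr4a1, the floxed gene, was lower in CDKO pools, at 9.13 ± 0.623 CPM against 13.8 ± 1.18 CPM in control pools (SD, n = 3 each; log2 difference -0.55, SE 0.12, limma adjusted p = 0.00204). Counts over the whole gene do not separate excised from kept exons. No library held a read of Nr4a3. The third gene of the family, Nr4a2, had 2.43 ± 1.22 CPM in CDKO pools and 3.86 ± 0.282 CPM in control pools and did not pass the test (limma adjusted p = 0.0547). It passed without CDKO pool 3 (limma adjusted p = 0.0115), with the replicate block and with a pseudocount of 5, and its adjusted p ran from 0.0115 to 0.216 over the alternatives. All 12 HSC markers checked (Kit, Hlf, Mecom and others) were detected in both groups, with summed levels of 4573 to 4767 CPM in CDKO pools and 4990 to 5235 CPM in control pools.

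Mpo, Ctsg and all 6 late genes had lower levels in every CDKO pool than in any control pool, by far the most in the late genes, whereas Prtn3 and Elane overlapped between groups. Summed over the 4 genes, the primary granule set had 220, 245 and 330 CPM in CDKO pools 1, 2 and 3, against 418, 402 and 387 CPM in control pools 1, 2 and 3. Summed over the 6 genes, the late set had 21.9, 14.8 and 77.6 CPM in CDKO pools, against 945, 712 and 719 CPM in control pools. The groups do not overlap in either sum, and CDKO pool 3 is the highest CDKO pool in both. The CDKO mean was 65.9% of the control mean for the primary granule set and 4.81% for the late set. In bulk libraries, fewer cells of a type and less RNA per cell cannot be told apart.

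Prtn3, which encodes proteinase 3, a serine protease of primary granules, was the most abundant primary granule gene and the one whose level differed least. It had 175, 201 and 204 CPM in CDKO pools 1, 2 and 3, and 196, 218 and 199 CPM in control pools. The groups overlap, and the means of 193 ± 15.9 CPM in CDKO pools and 204 ± 12.0 CPM in control pools lie within 1 SD of each other (SD, n = 3 each). The log2 difference, on the log2(CPM + 1) scale used throughout, was -0.08 (SE 0.06).

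Elane, the gene next to it, encodes neutrophil elastase. It had 8.76, 8.56 and 30.7 CPM in CDKO pools 1, 2 and 3, against 23.4, 19.7 and 20.0 CPM in control pools. CDKO pools 1 and 2 lie below every control pool and CDKO pool 3 lies above every control pool, so the groups overlap through 1 library. The CDKO values rest on 288, 355 and 1315 reads, and the exact Poisson intervals of the CDKO pools at 95%, which cover counting error only, were 7.78 to 9.84, 7.69 to 9.50 and 29.1 to 32.5 CPM. The log2 difference was -0.61 (SE 0.36) with all pools and -1.19 without CDKO pool 3.

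Mpo encodes myeloperoxidase, the enzyme that makes hypochlorous acid. It had 33.0, 32.1 and 90.6 CPM in CDKO pools 1, 2 and 3, against 190, 157 and 161 CPM in control pools. Every CDKO pool is below every control pool, and CDKO pool 3 is nearer to the control pools than the others. Its mean was 51.9 ± 33.5 CPM in CDKO pools and 169 ± 18.2 CPM in control pools, 3.27-fold higher in control, with a log2 difference of -1.86 (SE 0.30) that was -2.34 without CDKO pool 3.

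Ctsg encodes cathepsin G, a serine protease of the same granules, and was the lowest of the 4. It had 3.35, 3.59 and 5.33 CPM in CDKO pools 1, 2 and 3, against 8.82, 7.54 and 7.25 CPM in control pools. The groups do not overlap. The log2 difference was -0.82 (SE 0.17), and the control mean was 1.92-fold the CDKO mean. The order of the 4 log2 differences, lowest first, was Mpo, Ctsg, Elane and Prtn3, and without CDKO pool 3 Ctsg (-0.99) and Elane (-1.19) changed places.

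**Figure D1:**
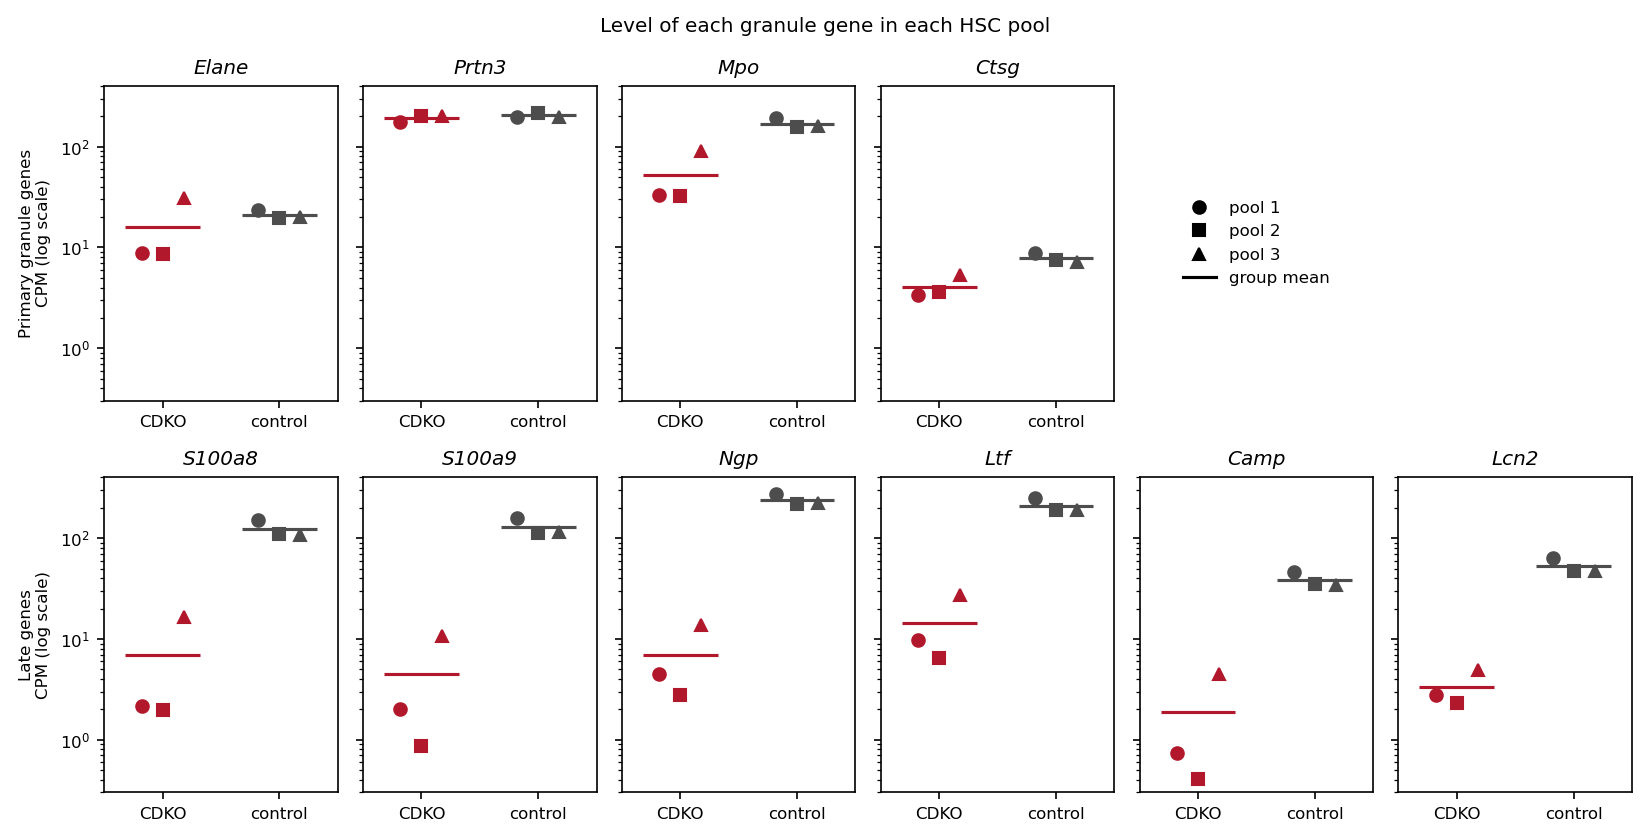
Level of each of the 10 genes in each pool, in CPM on a log axis, with CDKO pools in red left of control pools in grey and a bar at each group mean. Prtn3 sits between 175 and 218 CPM in all 6 pools, whereas every late gene has all 3 CDKO pools below all 3 control pools. CDKO pool 3 (triangle) is the highest CDKO pool in every panel.

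S100a8 and S100a9 encode the 2 calprotectin subunits, which bind calcium and zinc. S100a8 had 2.16, 1.98 and 16.6 CPM in CDKO pools 1, 2 and 3, against 152, 109 and 107 CPM in control pools. S100a9 had 2.01, 0.868 and 10.6 CPM in CDKO pools, against 158, 113 and 116 CPM in control pools. For both genes the groups do not overlap, and CDKO pool 3 stands well above CDKO pools 1 and 2. The log2 differences were -4.48 (SE 0.51) for S100a8 and -5.00 (SE 0.49) for S100a9. The ratio of S100a8 to S100a9 was 1.08, 2.28 and 1.56 in CDKO pools, against 0.956, 0.970 and 0.924 in control pools, and the CDKO ratios rest on as few as 36 reads of S100a9.

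Ngp encodes neutrophilic granule protein, which belongs to the cystatin and cathelicidin group. It had 4.50, 2.75 and 13.7 CPM in CDKO pools 1, 2 and 3, against 277, 217 and 224 CPM in control pools. It was the most abundant of the 10 genes in control pools by CPM, and its log2 difference was -5.15 (SE 0.36), the lowest of the 10 with all pools, while without CDKO pool 3 that of S100a9 (-5.76) was below that of Ngp (-5.72). Ltf encodes lactoferrin, an iron-binding protein of specific granules. It had 9.77, 6.46 and 27.2 CPM in CDKO pools, against 248, 190 and 189 CPM in control pools (log2 difference -3.99, SE 0.35). In both genes the highest CDKO pool is far below the lowest control pool.

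Camp encodes the cathelicidin precursor of an antimicrobial peptide. It had 0.730, 0.410 and 4.49 CPM in CDKO pools 1, 2 and 3, which is 24, 17 and 192 reads, against 46.4, 35.4 and 34.6 CPM in control pools (log2 difference -4.05, SE 0.39). Lcn2 encodes lipocalin 2, which binds bacterial siderophores. It had 2.77, 2.31 and 4.93 CPM in CDKO pools, against 63.0, 47.3 and 47.2 CPM in control pools (log2 difference -3.66, SE 0.20). Neither gene overlaps between groups. On the log2(CPM + 1) scale Lcn2 had the smallest difference of the late set, while by the ratio of mean CPM the smallest was that of Ltf. The control mean was 14.4-fold (Ltf) to 34.3-fold (Ngp) the CDKO mean over the 6 late genes.

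The median log2 difference was -0.72 over the 4 primary granule genes and -4.27 over the 6 late genes, beside -0.02 over all 13732 genes tested. In that fit 66.2% of tested genes passed an adjusted p of 0.05 by limma, 35.2% lower and 31.1% higher in CDKO pools, and 37.2% had every CDKO pool below every control pool. All 6 late genes, Mpo and Ctsg had every CDKO pool below every control pool, which is 8 of the 10. Since the 10 genes were picked for their levels in this comparison, that count is set beside the background and nothing is read from it. The counts of calls in every gene list below stand beside the same shares, 35.2% lower and 31.1% higher.

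**Figure D2:**
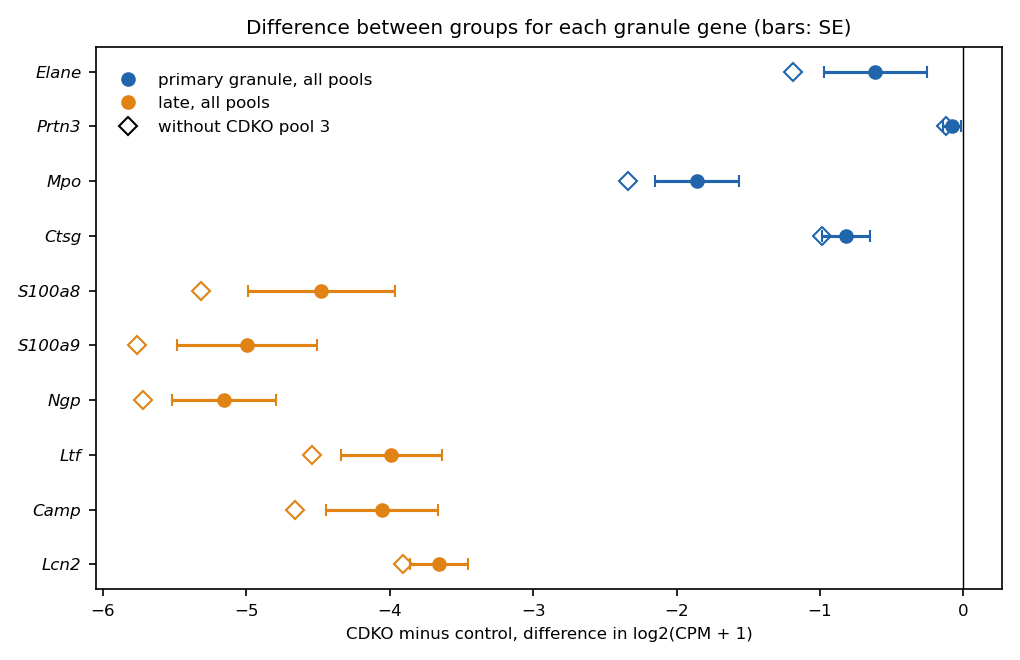
Difference between CDKO and control pools for each gene, in log2(CPM + 1), with bars of 1 SE (filled points, all pools) and the same difference without CDKO pool 3 (open diamonds). The 4 primary granule genes lie between -1.86 and -0.08 and the 6 late genes between -5.15 and -3.66, and all 10 open diamonds lie to the left of their filled points.

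All 10 genes were highest in pool 3 among the CDKO pools, as were 35.6% of all tested genes. Its level over the mean of CDKO pools 1 and 2 was 8.0-fold for S100a8, 7.87-fold for Camp, 7.38-fold for S100a9, 3.78-fold for Ngp, 3.55-fold for Elane, 3.36-fold for Ltf, 2.78-fold for Mpo, 1.94-fold for Lcn2, 1.54-fold for Ctsg and 1.08-fold for Prtn3. A ratio of at least 1.5 was found in 5.06% of all tested genes and in every one of the 10 but Prtn3. Set against the mean of CDKO pools 1 and 2 alone, the control mean was 20.7-fold (Lcn2) to 89.7-fold (S100a9) higher for the late genes, 5.21-fold for Mpo, 2.43-fold for Elane, 2.27-fold for Ctsg and 1.09-fold for Prtn3. Measured as a share of the control mean, the excess of CDKO pool 3 over CDKO pools 1 and 2 was 4.21% to 11.8% for the late genes, 7.72% for Prtn3, 23.6% for Ctsg, 34.2% for Mpo and 105% for Elane. The late genes of pool 3 were thus still at a small part of their control level, while Elane in that pool was above it.

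Relative to its mean, each of the 10 genes varied more among CDKO pools than among control pools. In CPM the SD among CDKO pools was smaller for each late gene (Ngp, 5.90 against 32.8 CPM in control pools). It was larger for each primary granule gene (Mpo, 33.5 against 18.2 CPM). Pool 3, the highest CDKO pool for all 10 genes, enters each CDKO value. Among control pools the coefficient of variation was 5.87% (Prtn3) to 20.4% (S100a8) over the 10 genes, beside a median of 6.07% over the 12588 genes with a mean of at least 1 CPM. Among CDKO pools it was 8.22% for Prtn3, 26.4% for Ctsg, 41.9% for Lcn2 and 64.6% to 121% for the other 7, beside a median of 6.75% over all those genes. Within the control group, pool 1 was highest for all 6 late genes, by 1.26-fold to 1.40-fold over the mean of control pools 2 and 3, and for 3 of the 4 primary granule genes. Prtn3 was the exception, with control pool 1 at 0.938 of the other pools. Among all tested genes 30.7% were highest in control pool 1.

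The late genes kept nearly fixed proportions among control pools and not among CDKO pools. Of the summed late level, Ngp made up 18.9 ± 1.45% in CDKO pools and 30.4 ± 0.944% in control pools. Ltf made up 41.1 ± 5.21% in CDKO pools and 26.4 ± 0.243% in control pools, and S100a9 made up 9.57 ± 3.92% in CDKO pools and 16.2 ± 0.481% in control pools (SD, n = 3 each). These are shares of CPM, and longer transcripts take a larger share. The other late genes overlapped between groups in S100a8 (14.9 ± 5.89% in CDKO pools and 15.4 ± 0.576% in control pools), Camp (3.96 ± 1.60% in CDKO pools and 4.90 ± 0.0748% in control pools) and Lcn2 (11.5 ± 4.74% in CDKO pools and 6.62 ± 0.0520% in control pools). In CDKO pools these shares came from few reads for Camp, S100a8 and S100a9.

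Within the primary granule set, Prtn3 made up 79.5%, 82.0% and 61.7% in CDKO pools 1, 2 and 3, against 46.8%, 54.2% and 51.4% in control pools. Mpo made up 15.0%, 13.1% and 27.4% in CDKO pools, against 45.5%, 39.1% and 41.5% in control pools. The groups do not overlap in either share, Prtn3 being the larger and Mpo the smaller in CDKO pools. The ratio of Elane to Mpo was 0.265, 0.267 and 0.339 in CDKO pools, against 0.123, 0.125 and 0.125 in control pools. Across sets, the late sum was 0.0997, 0.0603 and 0.235 times the primary granule sum in CDKO pools, against 2.26, 1.77 and 1.86 times in control pools, so the late genes were the larger sum in control HSC and the smaller in CDKO HSC.

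**Figure D3:**
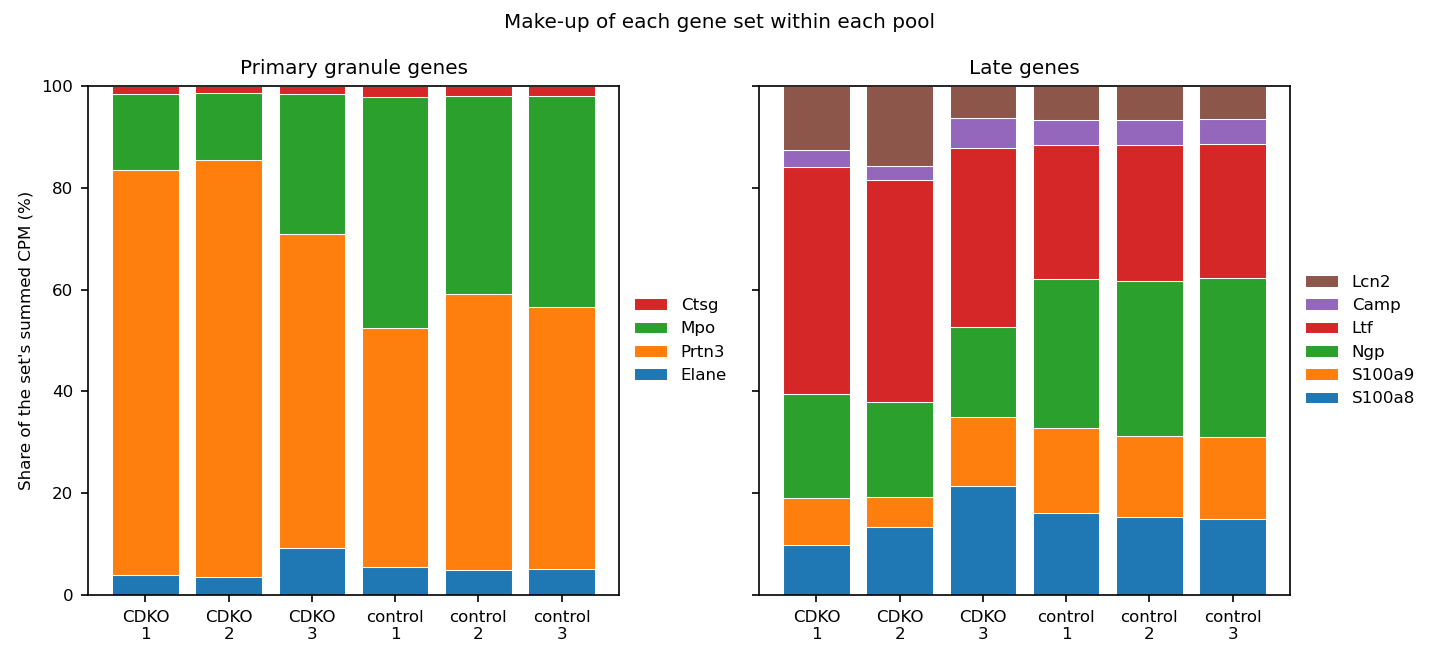
Share of each set's summed CPM taken by each gene, in percent, in the 3 CDKO pools and, to their right, the 3 control pools. Prtn3 fills 61.7% to 82.0% of the primary granule bars in CDKO pools and 46.8% to 54.2% in control pools, and the late bars are alike among control pools and uneven among CDKO pools.

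Levels were also divided by exon length, so that genes could be ranked against each other. In control pools the mean CPM per kilobase was 247 for S100a9, 196 for Ngp, 177 for S100a8, 118 for Prtn3, 60.7 for Ltf, 51.2 for Camp, 49.5 for Mpo, 21.4 for Elane, 20.0 for Lcn2 and 7.62 for Ctsg. In CDKO pools Prtn3 came first at 112 CPM per kilobase, followed by Elane at 16.3, Mpo at 15.2, S100a8 at 9.94, S100a9 at 8.61, Ngp at 5.72, Ltf at 4.20, Ctsg at 3.96, Camp at 2.48 and Lcn2 at 1.27. Late genes held the top 3 places in control pools, and primary granule genes held the top 3 in CDKO pools. Neighbours within about 1 SD of each other, such as Camp and Mpo or Elane and Lcn2 in control pools and most genes after Prtn3 in CDKO pools, have no settled order.

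Beyond the 10 genes, the other contents and makers of primary granules moved in both directions, as did all tested genes (35.2% lower and 31.1% higher). Of 19 tested, 7 were higher and 7 lower in CDKO pools, with a median log2 difference of 0.08, and nothing about primary granules is read from these counts. Arsa, a lysosomal sulfatase, was lower at 20.7 ± 2.56 CPM in CDKO pools against 49.1 ± 3.81 CPM in control pools (limma adjusted p = 2.23e-06). Lyz2, the lysozyme of myeloid cells, was lower at 179 ± 13.2 CPM in CDKO pools against 263 ± 15.8 CPM in control pools (limma adjusted p = 1.26e-05). Ap3b1, a subunit of the adaptor that sorts cargo to granules, was lower at 174 ± 9.27 CPM in CDKO pools against 225 ± 12.4 CPM in control pools (limma adjusted p = 1.01e-04). Srgn, the proteoglycan that packs granule proteases, was higher at 551 ± 28.1 CPM in CDKO pools against 473 ± 11.2 CPM in control pools (limma adjusted p = 0.00121).

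Ctsc, the protease that activates elastase, proteinase 3 and cathepsin G, had 83.6 ± 4.05 CPM in CDKO pools and 75.4 ± 1.14 CPM in control pools and was called higher (log2 difference 0.15, limma adjusted p = 0.0362). That call was lost without CDKO pool 1 and without each of the 3 control pools, with an adjusted p of 0.00625 to 0.126 over its alternatives. Prss57, a further serine protease of these granules, had 14.1 ± 0.568 CPM in CDKO pools and 12.6 ± 1.56 CPM in control pools and did not pass the test (limma adjusted p = 0.279).

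The promyelocyte and granulocyte-monocyte progenitor genes were lower more often than higher: of 13 tested, 8 were lower and 4 higher, with a median log2 difference of -0.65. That median was -0.41 without CDKO pool 1, and it ran from -0.96 (without CDKO pool 3) to -0.30 (pseudocount 5) over the alternatives. Clec12a, a myeloid lectin receptor, was lower at 2.99 ± 1.55 CPM in CDKO pools against 15.9 ± 1.42 CPM in control pools (limma adjusted p = 9.15e-06). Anxa3, an annexin of granulocytes, was lower at 3.48 ± 0.559 CPM in CDKO pools against 12.5 ± 2.32 CPM in control pools, and Hk3, a hexokinase of myeloid cells, at 49.5 ± 6.14 CPM in CDKO pools against 94.5 ± 5.75 CPM in control pools (limma adjusted p = 8.28e-06 and 4.57e-06). Plac8 was higher at 119 ± 5.01 CPM in CDKO pools against 71.0 ± 5.30 CPM in control pools, and Cst7, a cystatin, at 4.89 ± 0.311 CPM in CDKO pools against 1.78 ± 0.406 CPM in control pools (limma adjusted p = 2.30e-06 and 9.00e-05). Ms4a3, a marker of granulocyte-monocyte progenitors, had 3.57 ± 2.11 CPM in CDKO pools and 5.72 ± 0.512 CPM in control pools. Its call as lower (limma adjusted p = 0.0414) was lost without CDKO pool 1, CDKO pool 2 or any of the control pools and in 4 other settings, with an adjusted p of 4.34e-04 to 0.170 over its alternatives.

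The other specific and gelatinase granule genes were lower: 12 of 15 tested, with 1 higher and a median log2 difference of -1.71. Some of the 12, such as Retnlg, reached the mean of reads needed for testing through control pools alone and could hardly be called higher. The median ran from -2.94 (DESeq2, which called 9 lower) to -0.93 (pseudocount 5) over the alternatives, and it was -2.90 with edgeR. Mmp8, neutrophil collagenase, was lower at 1.14 ± 1.04 CPM in CDKO pools against 25.7 ± 1.30 CPM in control pools (log2 difference -3.75, SE 0.26, limma adjusted p = 5.81e-07). Mmp9, gelatinase B, was lower at 0.257 ± 0.425 CPM in CDKO pools against 18.8 ± 2.24 CPM in control pools (log2 difference -4.02, SE 0.21, limma adjusted p = 1.35e-07). Retnlg, a resistin-like protein of granulocytes, had 0.119 ± 0.181 CPM in CDKO pools against 21.9 ± 3.41 CPM in control pools (log2 difference -4.36, SE 0.17, limma adjusted p = 2.21e-08), and Chil3, a chitinase-like lectin, had 2.78 ± 1.14 CPM in CDKO pools against 21.7 ± 2.32 CPM in control pools (log2 difference -2.62, SE 0.19, limma adjusted p = 9.30e-07). The control mean was 72.9-fold the CDKO mean for Mmp9 and 184-fold for Retnlg. The pseudocount of 1 holds down the log2 differences of such low genes, so they are not ranked against those of the late genes.

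Cd177, a surface and granule protein of neutrophils, had 0.183, 0.121 and 8.604 CPM in CDKO pools 1, 2 and 3, with CDKO pool 3 again highest. Its mean was 2.97 ± 4.88 CPM in CDKO pools and 25.5 ± 2.95 CPM in control pools. Its call as lower (limma adjusted p = 4.28e-04) was lost with DESeq2, and its adjusted p ran from 3.65e-08 to 0.0691 over the alternatives. Anxa1, annexin A1, was the gene called higher, at 178 ± 9.39 CPM in CDKO pools and 160 ± 4.28 CPM in control pools (limma adjusted p = 0.0181). This call was lost without CDKO pool 2, CDKO pool 3, control pool 1 or control pool 2, with an adjusted p of 2.95e-04 to 0.0692 over its alternatives. Mmp25, Orm1 and Bpi had too few reads to be tested.

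Genes of mature neutrophils were lower in 10 of 15 tested, and the other 5 did not pass the test, with a median log2 difference of -0.83. Without CDKO pool 3 the count was 12 of 14 and the median -1.50, and over all alternatives 7 to 12 were called lower and the median ran from -2.08 (mean of at least 50 reads) to -0.37 (pseudocount 5). Fpr1, a receptor for formyl peptides, and Asprv1, an aspartic protease, had 0 reads in all 3 CDKO pools, against 6.06 ± 0.643 CPM and 3.98 ± 0.480 CPM in control pools (limma adjusted p = 1.27e-07 and 3.93e-07). Trem1, an activating receptor, had 0.129 ± 0.223 CPM in CDKO pools against 3.90 ± 0.769 CPM in control pools, and Wfdc21 had 0.187 ± 0.324 CPM in CDKO pools against 4.12 ± 1.31 CPM in control pools (limma adjusted p = 2.91e-06 and 1.06e-05). Fpr1, Asprv1, Trem1 and Wfdc21 reached the mean of reads needed for testing through control pools alone. They could hardly be called higher, and the count of 10 lower includes them. The p-values of Fpr1 and Asprv1 take no spread from CDKO pools. Csf3r, the receptor for G-CSF, which HSC and progenitors also express, was lower by a smaller step, at 96.5 ± 2.71 CPM in CDKO pools against 127 ± 2.52 CPM in control pools (log2 difference -0.39, SE 0.05, limma adjusted p = 3.09e-05). Stfa1, Stfa2, Stfa2l1, Stfa3, BC100530 and Gm5483 are near-identical stefin copies whose counts could be split among them, so none is read on its own. The list's counts and medians above still include those that were tested. Stfa2, Stfa3 and Gm5483 had too few reads to be tested and the other 3 were not called with all pools, though each of the 6 but Stfa2 passed under at least 1 alternative. Ly6g, the usual surface marker of mouse neutrophils, was not matched and is not analysed here.

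The NADPH oxidase, which makes the superoxide of the respiratory burst, was measured in 6 genes, of which 2 were higher and 1 lower (median log2 difference -0.02, and -0.02 to 0.05 over the alternatives, with 0.05 without CDKO pool 1). Cybb, its membrane catalytic subunit, was lower at 7.78 ± 1.25 CPM in CDKO pools against 20.7 ± 1.05 CPM in control pools (log2 difference -1.32, SE 0.13, limma adjusted p = 6.46e-06). Ncf4, a cytosolic subunit, was higher at 31.5 ± 1.89 CPM in CDKO pools against 23.9 ± 0.271 CPM in control pools (limma adjusted p = 0.00196). Cyba, the partner of Cybb, had 98.4 ± 3.82 CPM in CDKO pools against 88.6 ± 5.21 CPM in control pools, and its call as higher (limma adjusted p = 0.0384) was lost without CDKO pool 1, CDKO pool 2, control pool 1 or control pool 2 and with no filter, with an adjusted p of 0.00747 to 0.147 over its alternatives.

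**Figure D4:**
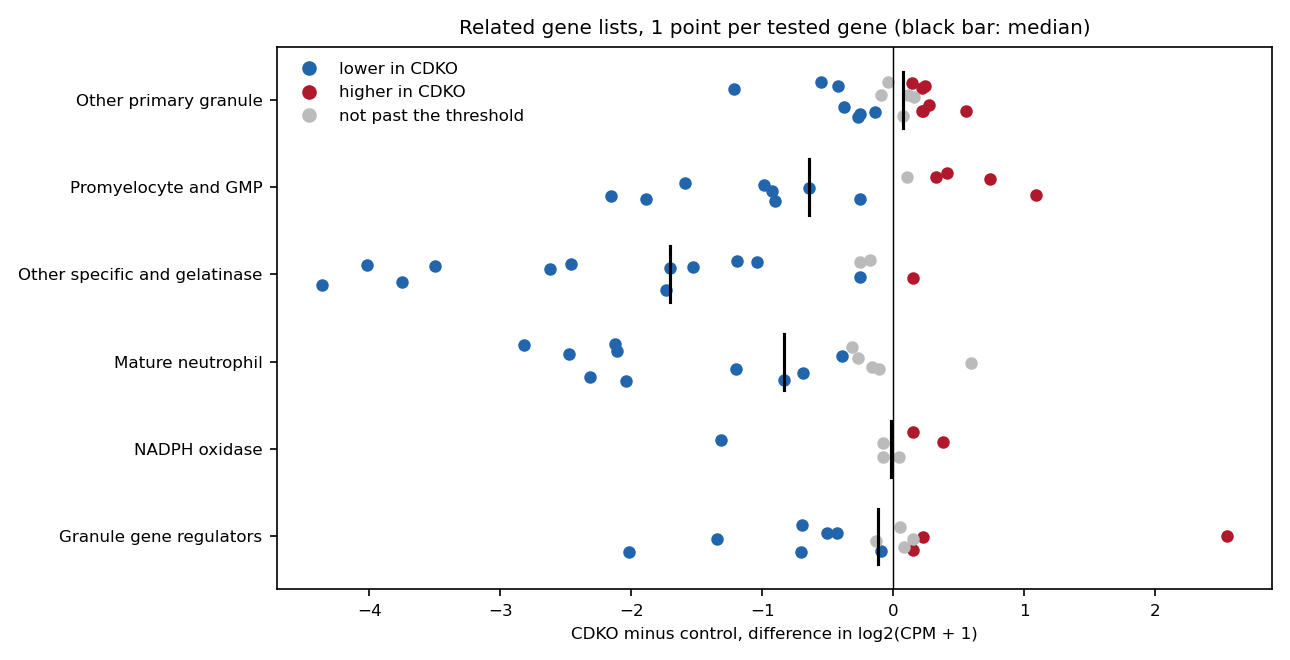
Log2 difference, CDKO minus control, of each tested gene in 6 related lists, with called genes in blue (lower in CDKO) and red (higher in CDKO), others in grey, and a black bar at each list's median. The list of other specific and gelatinase granule genes has its median at -1.71, and that of other primary granule genes at 0.08.

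Transcription factors linked to granule genes or myeloid fate, activators and repressors alike, were measured as a list of 14. Of these 7 were lower and 3 higher (median log2 difference -0.11, and -0.07 without CDKO pool 1), beside 35.2% lower and 31.1% higher of all tested genes. Cebpa, the C/EBP factor that starts granulocyte differentiation, was lower at 0.892 ± 0.146 CPM in CDKO pools against 6.75 ± 1.57 CPM in control pools (log2 difference -2.02, SE 0.17, limma adjusted p = 2.33e-06). Cebpg, another C/EBP factor, was lower at 57.5 ± 4.39 CPM in CDKO pools against 94.6 ± 7.57 CPM in control pools, and Irf8, a factor of monocyte differentiation, at 15.6 ± 2.40 CPM in CDKO pools against 40.9 ± 3.63 CPM in control pools (limma adjusted p = 9.22e-06 and 2.70e-06). Klf5 was higher at 7.53 ± 0.785 CPM in CDKO pools against 0.494 ± 0.399 CPM in control pools, and Spi1, which encodes PU.1, at 115 ± 5.18 CPM in CDKO pools against 97.5 ± 2.81 CPM in control pools (limma adjusted p = 1.51e-06 and 0.00229).

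Cebpe, the C/EBP factor of the specific granule stage, had 0.605 ± 0.297 CPM in CDKO pools and 1.25 ± 0.172 CPM in control pools. Its call as lower (limma adjusted p = 0.0219) was lost without CDKO pool 1, CDKO pool 2, control pool 2 or control pool 3, with quantile normalization, with edgeR and with DESeq2, and its adjusted p ran from 0.00672 to 0.141 over the alternatives. Gfi1, a repressor needed for neutrophil differentiation, had 35.7 ± 3.74 CPM in CDKO pools and 31.98 ± 3.22 CPM in control pools and did not pass the test (limma adjusted p = 0.197). The number of regulators called was 6 without CDKO pool 1 and likewise 6 without CDKO pool 2, against 10 with all pools.

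Genes beside the 10 on the chromosome were looked up as a description, and whether differences ran along a region was not tested. Prtn3 and Elane sit between Plppr3, which was not matched in the table, and Cfd, which had 0 reads in all CDKO pools and 0.0170 ± 0.0149 CPM in control pools. Next to Ngp, Klhl18 was lower in CDKO pools and Ptpn23 was higher (log2 difference -1.10 and 0.67, limma adjusted p = 1.15e-06 and 0.00291). Beside Ltf, Ccrl2 was higher (log2 difference 1.28, limma adjusted p = 1.77e-04), and beside Camp, Nme6 was higher (log2 difference 0.52, limma adjusted p = 2.95e-04). Cdc25a, on the other side of Camp, was called higher (log2 difference 0.18, limma adjusted p = 0.0205), a call lost without CDKO pool 2, CDKO pool 3 or control pool 3, with an adjusted p of 0.00307 to 0.0896 over its alternatives.

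Near Mpo, Tspoap1 was lower (log2 difference -0.92, limma adjusted p = 3.99e-04) and Lpo, a related peroxidase gene, had 1 read in all. Mcpt8, a basophil protease gene beside Ctsg, was lower (log2 difference -4.70, limma adjusted p = 8.10e-07), and Gzme on the other side had no read. Of the genes beside Lcn2, 1110008P14Rik and Ptges2 did not pass the test (limma adjusted p = 0.133 and 0.232). S100a7a, Pglyrp4 and Rtp3, the outer neighbours of the S100 pair and of Ltf, had at most 2 reads in any library. Neighbours on chromosome 9 were called in both directions, as were all tested genes, of which 35.2% were lower and 31.1% higher.

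The profile over the 6 libraries was compared between each set and 12578 genes with a mean of at least 1 CPM, by Pearson r with the set's mean standardised profile. The profiles most like the late set were those of Epdr1, Sirt2, Dapk2, 5430417L22Rik and Rexo1 (r of 0.998 to 0.999), and 1279 genes had r over 0.95. Dapk2 had 0.420 ± 0.488 CPM in CDKO pools and 7.0 ± 0.703 CPM in control pools. The profiles most like the primary granule set, in which CDKO pool 3 lies closer to the control pools, were those of Mcf2l, Dusp18, Gm5113, Plscr1 and Add2 (r of 0.989 to 0.996), and 140 genes had r over 0.95. With 6 libraries in 2 groups, r is set largely by the group difference and is given as a description.

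Markers of basophils, mast cells and eosinophils and most tested erythroid markers were lower along with the late genes, and their part in these differences was not tested. All 11 tested markers of basophils, mast cells and eosinophils were lower, with a summed level over 12 markers of 18.7, 23.8 and 20.6 CPM in CDKO pools against 465, 417 and 471 CPM in control pools, and Cd200r3 and Il5ra at 0 reads in all CDKO pools. Their sum was not highest in CDKO pool 3, unlike that of the late genes. Of 8 tested erythroid markers 6 were lower, with summed levels of 2328 to 2549 CPM in CDKO pools and 2951 to 3194 CPM in control pools, most of it from Car2. The globin genes Hbb-bt, Hba-a1 and Hba-a2 had 0 reads in every library. The gene annotation behind the counts is not given, so this is not read as absence of globin RNA.

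Markers of the other lineages checked were called in both directions, or only higher for T and NK cells, of whose 8 markers 3 were tested. Of all tested genes 35.2% were lower and 31.1% higher, so no direction of a lineage is read from these counts. Of 12 monocyte and macrophage markers 6 were higher and 5 lower, with summed levels of 82.7 to 91.8 CPM in CDKO pools and 77.8 to 87.8 CPM in control pools. Csf1r, the receptor for M-CSF, was higher at 21.5 ± 1.68 CPM in CDKO pools against 3.22 ± 0.626 CPM in control pools (limma adjusted p = 2.86e-07). Of 7 tested B cell markers 2 were higher and 3 lower, with summed levels of 58.5 to 61.8 CPM in CDKO pools and 47.5 to 56.8 CPM in control pools, and Pax5 and Ms4a1 at 0 reads in every library. Of 3 tested T and NK cell markers 2 were higher, with Cd3e and Cd3g at 0 reads in every library, and summed levels of 50.1 to 55.1 CPM in CDKO pools and 32.9 to 33.2 CPM in control pools. Among the HSC markers 5 were higher and 6 lower, with a median log2 difference of -0.04.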

How the data were processed

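RNA was isolated from sorted HSC with RNeasy Micro columns, amplified with a SMARTer Ultra Low Input v3 kit and made into Nextera XT libraries, per the labels' protocols. TopHat2, HTSeq, DESeq2 and the build mm10 are named, without versions or roles, per the submitters' processing notes, and the gene annotation and the strand setting are not given in the sources used here. The deposited values per library are CPM, scaled to each library's own total. Whole reads were recovered from the step that 1 read is worth, and 99.9989% of values came out whole to within 0.01 read. The deposited baseMean is a signal over the 6 libraries, the deposited log2 fold change and its error set control over CDKO, the deposited stat is a score, and both deposited p-value columns come from the authors' own DESeq2 test. None of these was used for the values given.

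Genes with a mean of at least 10 recovered reads were tested with limma 3.58.1 (R 4.3.3) on log2(CPM + 1), CDKO minus control, with eBayes and a mean-variance trend, two-sided, at a Benjamini-Hochberg adjusted p of 0.05 over all 13732 genes tested. The filter took the mean of reads over all 6 libraries, so a gene near 0 reads in a group could be tested through the other group alone. Such a gene could hardly be called in the other direction. The pseudocount of 1 understates the change of low genes. Left out were 12 genes whose symbol had become a date and 2 rows that share a symbol. Alternatives were a replicate block, each library left out in turn, pseudocounts of 0.5 and 5, a filter of 50 mean reads or none, TMM scaling and quantile normalization. The recovered reads were also tested with edgeR 4.0.16, which called 8787 genes, and with DESeq2 1.42.0, which called 9506. The script was tested on simulated data. All 6 libraries were kept. Library pairs of a group differed by more than sampling noise (mean chi-square per gene 7.93 to 14.7, the highest for CDKO pools 1 and 3), which is not a check of quality.

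The 10 genes, the gene lists and the tests were chosen with earlier results of these data known. Named are the 10 genes, a fixed set of family members, regulators and markers whatever their values, in each list the 4 genes with the smallest p and up to 2 called in the less common direction, the nearest annotated genes, and the 5 most alike profiles. A few genes that this rule names are not reported here. Dapk2 and Csf1r are given values as examples chosen after their values were seen. Of 202 list entries 201 were found, 3 under an older symbol. Setting a group at 0 to the floor of 3 counts left every list median as given. Positions and promoters are from RefSeq (GRCm38.p6, which matches mm10), and lengths are exon unions of a GENCODE annotation of that build.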

Additional observations from a re-analysis of the deposited data

How the results depend on the processing

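The genes called numbered 9096 with all pools, 9241 with the replicate block, 8254 to 8707 with 1 library left out, and 8250 to 9506 under the remaining settings. The median log2 difference of the primary granule genes ran from -1.09 to -0.49 and that of the late genes from -4.99 to -3.61 over the alternatives, the lowest value of each without CDKO replicate 3 and the highest with a pseudocount of 5. The number of granule gene regulators called was 10 with all pools and 6 to 10 with 1 library left out, the 6 coming without CDKO replicate 1 and without CDKO replicate 2, and the cause was not tested. No gene named here as called changed direction under any alternative. The labels do not say whether the numbers 1 to 3 pair the pools. The correlation of deviations between same-numbered pools was 0.0518, 0.0483 and -0.0120, against -0.0650 to 0.0263 for different numbers. With 3 pools a group these values cannot settle whether same-numbered pools shared a litter or a day. The replicate block moved no list's count of calls by over 1.5 times. With 3 pools a group, calls of differences under about 0.2 on the log2 scale (Ctsc, Anxa1, Cyba, Cdc25a) were often lost when 1 library was left out. Calls of larger differences were lost in this way as well, such as those of Ms4a3 (-0.65) and Cebpe (-0.50).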

Other observations

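The S100 relatives of the late genes moved in both directions. Of 9 tested S100 genes 4 were higher in CDKO pools and 2 lower, with a median log2 difference of 0.18 (0.03 with no filter, 0.29 with quantile normalization). Among all tested genes 31.1% were called higher and 35.2% lower, so nothing about the family is read from this count. S100a10 had 68.0 ± 3.30 CPM in CDKO pools and 54.6 ± 1.20 CPM in control pools, and S100a6 had 33.9 ± 1.94 CPM in CDKO pools against 25.8 ± 1.27 CPM in control pools (limma adjusted p = 8.85e-04 and 0.00190, both higher). S100b had 0.0623 ± 0.108 CPM in CDKO pools and 2.09 ± 0.655 CPM in control pools, and S100a3 had 0 reads in all CDKO pools and 1.11 ± 0.215 CPM in control pools (limma adjusted p = 2.15e-05 and 7.05e-05, both lower). S100b and S100a3 passed the filter on reads through control pools alone and could hardly be called higher.

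Among protease, peroxidase and transferrin genes related to the primary granule genes and Ltf, 9 of 23 were tested, with 3 higher and 6 lower and a median log2 difference of -1.10 (-0.06 over 14 genes with no filter, -0.62 with a pseudocount of 5). Prss34, a basophil protease, had 0.179 ± 0.263 CPM in CDKO pools and 163 ± 21.6 CPM in control pools, Epx, the eosinophil peroxidase, had 0.0281 ± 0.0307 CPM in CDKO pools against 38.2 ± 15.6 CPM in control pools, and Mcpt8 had 0.677 ± 1.15 CPM in CDKO pools against 37.0 ± 4.28 CPM in control pools (limma adjusted p = 3.93e-10, 6.45e-08 and 8.10e-07). The granzyme genes Gzma and Gzmb, serine proteases of killer lymphocytes, were higher, Gzma at 8.48 ± 2.06 CPM in CDKO pools against 0.676 ± 0.164 CPM in control pools and Gzmb at 3.13 ± 0.420 CPM in CDKO pools against 0 reads in all control pools (limma adjusted p = 8.05e-07 and 8.58e-07). Prss34 and Epx passed the filter on reads through control pools alone and Gzmb through CDKO pools alone, so each could hardly be called the other way.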
